A study of Mus musculus with 15 samples.

Results

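The transcripts described here are those of 10 genes of the actin cytoskeleton and of serum response factor (SRF), the transcription factor that controls many of them. They were chosen by name and all 10 were found among the 20207 genes of each table. Acta2, Actb and Actg1 code for actins, Tpm1 and Tpm2 for tropomyosins, Myl9 for a regulatory light chain of myosin II, Tagln and Cnn1 for the actin-binding proteins transgelin and calponin 1, Vcl for the focal adhesion protein vinculin and Srf for SRF itself. The cells were NIH3T3, a fibroblast line from mouse, and mRNA-seq was run on their poly(A) RNA. They stably expressed DD-sfGFP, in which a destabilizing domain (DD) derived from FKBP is joined to superfolder GFP. According to the study's methods the transgene was integrated by PiggyBac transposition and cells with high GFP were sorted as a population. The DD is folded while the ligand Shield-1 (S1) is bound, and S1 was withdrawn by adding purified FKBP(F36V) protein to the medium. The 5 control samples (cont) carried the same transgene and kept S1, and the samples labelled DD were collected 45 min (n = 3), 135 min (n = 3) or 405 min (n = 4) after withdrawal. A control for the added FKBP(F36V) protein itself was not analysed here, so that addition and the unfolded DD cannot be told apart in these samples. The study's RT-qPCR after S1 withdrawal in cells with GFP alone found no significant change in the transcripts it measured. The study also describes mRNA-seq of GFP-only cells given S1 in the same way, which was not analysed here. Levels are CPM, that is counts scaled to a common library total, after TMM scaling, which corrects for the composition of a library, and the comparisons ask whether actin and SRF target transcripts moved after the unfolded domain appeared.

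SRF binds a short element, the CArG box, in the promoters of muscle, cytoskeletal and immediate-early genes. Its cofactors of the MRTF family are held in the cytoplasm by actin monomers and enter the nucleus when actin polymerizes, so that actin dynamics and actin gene expression are linked. Its other cofactors, the ternary complex factors such as Elk1, Elk3 and Elk4, respond to growth factor signals through the MAP kinase pathway. In cultured fibroblasts the pathway is known for its response to serum and for the contractile genes that rise as fibroblasts become myofibroblasts.

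The promoters with a CArG box are shown because this element ties the genes to SRF. In the RefSeq promoter table (assembly GRCm38.p6), which holds 250 bases before and 50 bases after each start site, 8 of the 10 genes had an entry, and Actb and Tagln are named only. A CArG box, searched as the strict consensus on both strands, which for this symmetrical element gives the same matches, was found in 4 of the 8, namely Srf, Actg1, Vcl and Myl9. It was found in 1.63% of all 32851 promoters of the same length. Srf, whose own promoter is a textbook SRF target, held 2 boxes. The stretches below end before the start site, run 5′ to 3′ on the strand of the gene, and have the CArG boxes in capitals. They lie at chr17:46556185-46556274 (minus strand, Srf), chr11:120348546-120348615 (minus strand, Actg1), chr14:20929148-20929210 (plus strand, Vcl) and chr2:156775273-156775342 (plus strand, Myl9).
Srf: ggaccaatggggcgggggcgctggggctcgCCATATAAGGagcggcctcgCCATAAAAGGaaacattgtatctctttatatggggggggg
Actg1: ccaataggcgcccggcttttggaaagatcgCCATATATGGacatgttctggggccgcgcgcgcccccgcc
Vcl: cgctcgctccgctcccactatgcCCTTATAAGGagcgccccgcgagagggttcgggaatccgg
Myl9: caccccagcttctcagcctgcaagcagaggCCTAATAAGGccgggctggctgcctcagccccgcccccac
The boxes began 82 and 62 bases before the start site in Srf, 90 in Actg1, 227 in Vcl and 161 in Myl9. No match was found in this window for Acta2, Cnn1, Tpm1 and Tpm2, which says only that the strict consensus is not in these letters. Of the 4 genes with a box, Actg1 and Vcl were lower at 405 min, and Srf and Myl9 did not pass the test in the model with group only. Of the genes without a match, Tpm1 was lower in that model, Acta2 and Tpm2 did not pass, and Cnn1 was not tested.

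Libraries differed in ways that the groups do not explain. Totals ran from 6652539 counts (control replicate 3) to 30258404. The slope of log2 CPM on the exonic GC content of genes split the libraries into set 1 (10 libraries) and set 2 (5 libraries). For each 10 percentage points of GC the log2 CPM changed by -1.42 to -0.672 in set 1 and by -0.384 to 0.034 in set 2. The sets were drawn from the data and are no batch given in the labels. Set 2 held control replicate 2, 45-min replicate 3 and 405-min replicates 1, 2 and 4, so that 3 of 4 libraries at 405 min, none at 135 min and 1 of 5 controls belonged to it. The first principal component, with 56.2% of the variance, separated the same sets. The gap that separates the sets (0.288) was barely wider than the next one (0.276), so values with the set as a term in the model are given beside the 405-min results. Fibroblast markers were present throughout, with a summed level of 10400 to 16100 CPM over 6 genes. Vim, Col1a2 and Pdgfrb among them were themselves lower at 405 min in the model with group only (log2 fold changes -0.61, -0.39 and -0.70, adjusted p = 0.0121, 0.0452 and 0.0204). The mean CPM of Col1a1, Fn1 and Thy1 at 405 min stood at 0.96, 0.99 and 1.08 of the control mean. That of Pdgfrb was already at 0.53 of it at 135 min. Markers of muscle summed to at most 2.96 CPM over 7 genes and those of epithelium to at most 2.61 over 3. Those of blood cells summed to 3.11 to 3.77 CPM at 405 min and to 0 to 2.48 in the other groups. Cd68 carried this difference, with 3.04 to 3.63 CPM at 405 min and 0 to 1.80 in controls. The part of these markers in the results below was not tested.

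The comparisons of a time point with control share the same 5 control samples. At 405 min 3 of the 9 genes tested were lower than in control and 0 were higher, where 13.4% of the 10276 genes tested across the transcriptome were lower and 9.99% were higher. The 3 genes were Tpm1, Vcl and Actg1, whose mean CPM stood at 0.57, 0.63 and 0.68 of the control mean. The median log2 fold change of the 9 was -0.09, beside -0.001 over all genes tested. At 45 min no gene passed, where 0% of all genes were higher and 0% lower. At 135 min none passed either, where 0.564% of all genes were higher and 0.895% lower. Cnn1 had fewer than 1 count in 4 of 15 libraries and was left out by the filter on low counts.

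**Figure D1:**
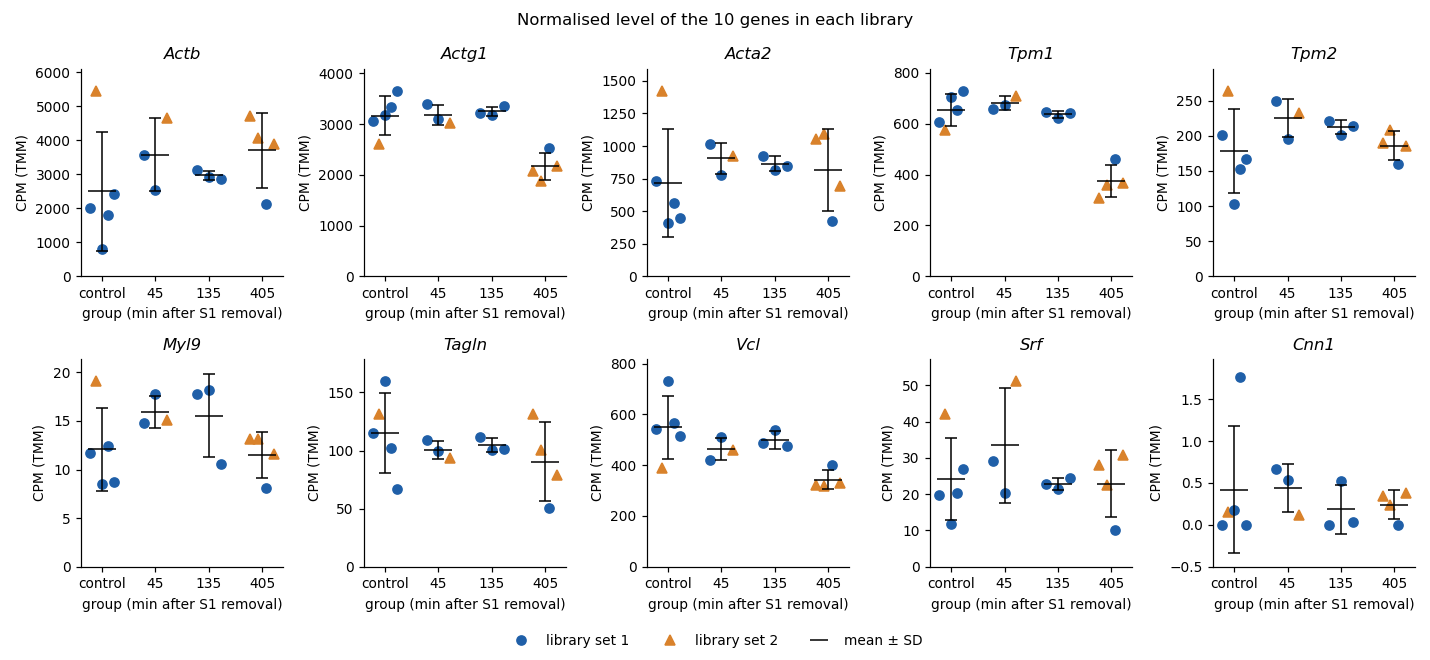
Normalised level (CPM after TMM scaling, linear axis from 0 except for Cnn1, where the SD reaches below 0) of the 10 genes in each library, by group. Blue circles are libraries of set 1, orange triangles those of set 2, and black bars give the mean ± SD of the group (n = 5, 3, 3 and 4). Every 405-min library of Tpm1 and Actg1 sits below every control, while Actb and Acta2 spread widely within the control group.

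Tropomyosins wind along actin filaments and set which proteins can bind them. Tpm1 (mm9, chromosome 9, 66870400 to 66897020) had 607, 576, 703, 652 and 729 CPM in control replicates 1 to 5. It had 657, 674 and 709.7 at 45 min and 646, 622 and 639.8 at 135 min. At 405 min it had 308, 359.9, 462 and 366 CPM. The first 3 groups lay together and all 4 libraries at 405 min were below them. Controls averaged 653 ± 64.0 CPM (SD, n = 5), and the 405-min libraries 374 ± 64.1 CPM (SD, n = 4). On the log2 scale this was a difference of -0.81 ± 0.13 (SE, adjusted p = 0.000989). Tpm1 was the gene of the 9 with the smallest adjusted p at 405 min, and it was also lower than at 135 min (-0.77 ± 0.14, adjusted p = 0.0107). With the library set as a term it was lower against control by -0.70 ± 0.12 (adjusted p = 0.0008). Within set 1, with 1 library at 405 min, the log2 fold change was -0.55 (adjusted p = 0.108), and within set 2, with 1 control, it was -0.75 (adjusted p = 0.0729).

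Tpm2 (chromosome 4, 43527584 to 43536260) codes for the beta tropomyosin of contractile cells. Its controls read 201, 264, 103, 153 and 168 CPM, and the 405-min libraries 190.1, 209, 160.3 and 185. The 405-min values lay inside the range of the controls. At 45 min the values were 249, 196 and 232 CPM, and at 135 min 222, 202 and 214. The log2 fold changes were 0.34 ± 0.22, 0.25 ± 0.22 and 0.06 ± 0.20 at 45, 135 and 405 min, with adjusted p-values of 0.698, 0.703 and 0.822. The 405-min value was -0.13 ± 0.18 with the library set as a term (adjusted p = 0.68). The coding sequences of Tpm1 and Tpm2 (GENCODE vM1, first transcript of each) were identical at 76.0% of aligned bases.

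Among the actins, Actg1 (gamma-actin of non-muscle cells, chromosome 11, 120207004 to 120209798) had 3052, 2608, 3178, 3327 and 3655 CPM in controls. It had 3393, 3109 and 3031 at 45 min and 3220, 3178 and 3357 at 135 min, within the control range. At 405 min it had 2080, 1885, 2526 and 2178 CPM, below every control, although the highest of these and the lowest control (replicate 2) were close. Controls averaged 3164 ± 384 CPM (SD, n = 5), and the 405-min libraries 2167 ± 268 CPM (SD, n = 4). The log2 fold change was -0.55 ± 0.13 (adjusted p = 0.0115). With the library set as a term it was -0.41 ± 0.11 (adjusted p = 0.0198), and within sets it was -0.40 in set 1 (adjusted p = 0.242) and -0.36 in set 2 (adjusted p = 0.512). The call was lost when only the control and 405-min libraries were fitted (-0.54 ± 0.17, adjusted p = 0.0652). Against 135 min the log2 fold change was -0.58 ± 0.15 (adjusted p = 0.036), and with the set as a term -0.40 (adjusted p = 0.0999).

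Actb, which codes for the other non-muscle actin (chromosome 5, 143664795 to 143668403), behaved otherwise. Its controls spread from 803 CPM in replicate 3 to 5455 in replicate 2, with 1997, 1810 and 2417 in replicates 1, 4 and 5. It had 3559, 2525 and 4661 CPM at 45 min, 3124, 2920 and 2873 at 135 min, and 4702, 4080 and 2126 with 3904 at 405 min. The highest level in each of the control, 45-min and 405-min groups belonged to a library of set 2. The only 405-min library of set 1 (replicate 3) was the lowest of its group and lay inside the range of the set 1 controls. The log2 fold change at 405 min was 0.57 ± 0.40 (adjusted p = 0.282). It was 0.05 ± 0.27 with the library set as a term (adjusted p = 0.922), 0.27 within set 1 (adjusted p = 0.782) and -0.38 within set 2 (adjusted p = 0.518). One library decided this call: without control replicate 2 Actb was 1.08 ± 0.30 higher on the log2 scale (adjusted p = 0.0104). That fit held no set 2 control, while 3 of 4 libraries at 405 min were of set 2. Time and set cannot be told apart in it. Of 10287 genes tested, 2515 were then higher, beside 1027 of 10276 with every library. At 135 min, where every library belonged to set 1, the log2 fold change within set 1 was 0.76 ± 0.29 (adjusted p = 0.13).

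Acta2 codes for the smooth muscle actin that marks myofibroblasts (chromosome 19, 34315581 to 34329826). Its controls held 729, 1424, 408, 560 and 451 CPM, and replicate 2 again stood highest. It had 1017, 780.2 and 924 CPM at 45 min and 927, 819.6 and 848 at 135 min. At 405 min the set 2 libraries held 1053, 1095 and 691 CPM and the set 1 library 425. At 135 min the log2 fold change within set 1 was 0.69 ± 0.19 (adjusted p = 0.0583). Against all controls it was 0.34 ± 0.37, 0.28 ± 0.37 and 0.19 ± 0.34 at 45, 135 and 405 min (adjusted p = 0.709, 0.831 and 0.678). At 405 min it was -0.29 ± 0.25 with the library set as a term (adjusted p = 0.487). The 3 actin genes are close copies of each other. Aligned coding bases were 88.7% identical between Actb and Actg1, 82.8% between Actb and Acta2 and 81.5% between Actg1 and Acta2. How reads that fit more than one gene were assigned is not given in the sources used here, so the split of reads among the actins is uncertain.

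Myl9, which is phosphorylated to switch on myosin II, was a low transcript (chromosome 2, 156601200 to 156607393). It had 11.7, 19.1, 8.54, 12.4 and 8.70 CPM in controls, 14.8, 17.8 and 15.1 at 45 min, and 17.8, 18.2 and 10.6 at 135 min. At 405 min it had 13.1, 13.1, 8.11 and 11.6 CPM. All groups overlapped, and the log2 fold changes of 0.39 ± 0.28, 0.35 ± 0.28 and -0.08 ± 0.26 had adjusted p-values of 0.698, 0.673 and 0.832. Myl9 read -0.35 ± 0.25 at 405 min with the library set as a term (adjusted p = 0.39). Tagln, a calponin-related protein of contractile cells (chromosome 9, 45737711 to 45743981), had 115, 132, 159.7, 102 and 67.3 CPM in controls. It had 109, 99.2 and 93.5 at 45 min, 111, 101 and 101 at 135 min, and 131, 101, 50.8 and 79.3 at 405 min. The 45-min and 135-min values lay inside the control range, and only replicate 3 at 405 min lay below it. The log2 fold changes of Tagln were -0.19 ± 0.28, -0.14 ± 0.28 and -0.34 ± 0.25 (adjusted p = 0.758, 0.895 and 0.306), and with the term the 405-min value was -0.58 ± 0.27 (adjusted p = 0.177). Cnn1, a marker of differentiated smooth muscle (chromosome 9, 21903697 to 21913665), was close to absent. It had 0, 3, 1, 26 and 0 counts in controls, 20, 5 and 2 at 45 min, 0, 10 and 1 at 135 min and 5, 5, 0 and 7 at 405 min. A count of 0 allows up to 3 counts. When genes of low count were kept in the fit, the log2 fold changes of Cnn1 were 0.036, -1.14 and -0.77 at 45, 135 and 405 min (adjusted p = 1, 0.821 and 0.768), and each SE was larger than its difference.

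Vcl links integrins to actin filaments (chromosome 14, 21748655 to 21852895). It had 544, 389, 731, 566 and 515 CPM in controls, 422, 510.4 and 462 at 45 min, and 486, 540.1 and 474 at 135 min. At 405 min it had 323, 319.5, 401 and 330.5 CPM. The 405-min libraries were below all other libraries except control replicate 2, which was lower than 405-min replicate 3. Within both sets the 405-min libraries were below every control. Controls averaged 549 ± 123 CPM (SD, n = 5), and the 405-min libraries 343 ± 38.5 CPM (SD, n = 4). The log2 fold change was -0.68 ± 0.16 (adjusted p = 0.00999). It was -0.50 ± 0.14 with the library set as a term (adjusted p = 0.0318), -0.56 within set 1 (adjusted p = 0.221) and -0.28 within set 2 (adjusted p = 0.581). The call was lost when only the control and 405-min libraries were fitted (-0.67 ± 0.19, adjusted p = 0.0522). Against 135 min it was -0.54 ± 0.18 (adjusted p = 0.0813), and it passed when only these 2 groups were fitted (-0.57 ± 0.13, adjusted p = 0.0183).

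Srf itself was a low transcript (chromosome 17, 46683788 to 46693111). It had 19.8, 42.2, 11.9, 20.3 and 27.0 CPM in controls, 29.1, 20.4 and 51.2 at 45 min, and 22.9, 21.3 and 24.6 at 135 min. At 405 min it had 28.1, 22.5, 10.1 and 30.8 CPM, inside the control range except for replicate 3, which lay just below it. The log2 fold changes were 0.46 ± 0.40, -0.09 ± 0.40 and -0.09 ± 0.37 at 45, 135 and 405 min (adjusted p = 0.698, 0.958 and 0.868). With the library set as a term the 405-min difference was -0.76 ± 0.23 (adjusted p = 0.0411). With an offset for GC it was -0.71 ± 0.18 (adjusted p = 0.0114). The highest exonic GC content of the 10 genes was that of Srf, at 60.1%, beside a median of 49.1% over the tested genes with a value. Within sets its log2 fold change was -0.98 in set 1 (adjusted p = 0.269) and -0.65 in set 2 (adjusted p = 0.15).

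**Figure D2:**
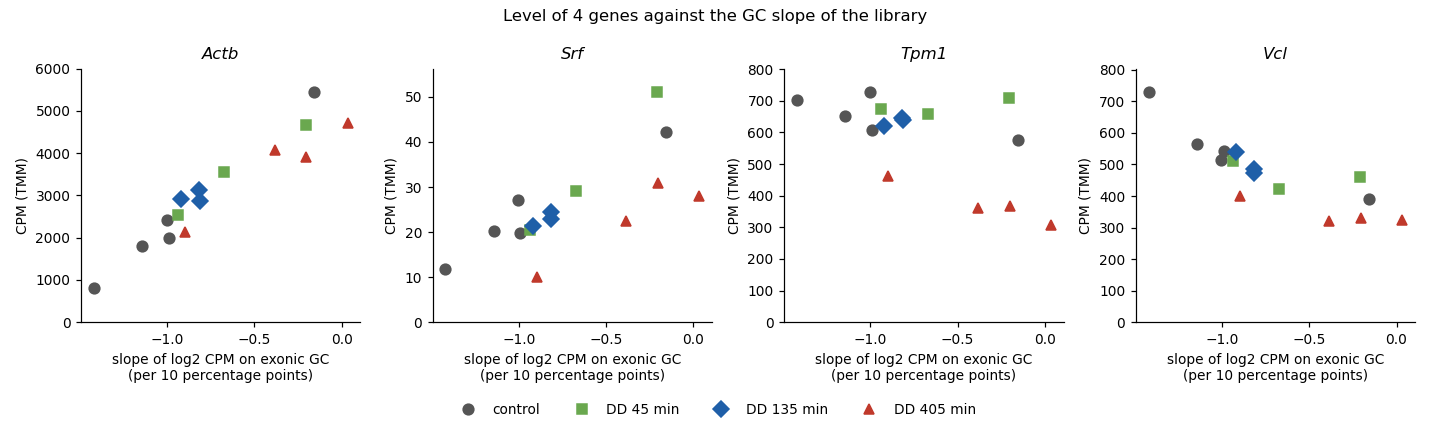
Level (CPM after TMM scaling, linear axis from 0) of Actb, Srf, Tpm1 and Vcl in each of the 15 libraries, against the slope of log2 CPM on exonic GC of the same library (per 10 percentage points of GC). Markers give the group. Actb runs from 803 CPM in the control with the steepest negative slope to 5455 in the control nearest to a flat slope, whereas the 405-min libraries of Tpm1 lie below all others at any slope.

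Control replicate 2, the only control of set 2, differed from the other controls by unequal factors across the genes. Its level was 3.1 times the mean of the other 4 controls for Actb, 2.65 times for Acta2, 2.14 times for Srf, 1.84 times for Myl9 and 1.69 times for Tpm2. It was 0.66 of that mean for Vcl, 0.79 for Actg1 and 0.86 for Tpm1. These are the values of 1 library, with no test. They lie in the same direction as the 405-min difference of the model with group only for Vcl, Actg1, Tpm1, Actb, Acta2 and Tpm2. For Srf, Myl9 and Tagln (1.19 times) the directions were opposite. With the set as a term 4 of 9 genes were lower at 405 min (Tpm1, Vcl, Actg1 and Srf) and 0 were higher, where 6.87% of all genes were lower and 6.17% higher, and the median of the 9 was -0.41. Without regard to the sets, Actg1 and Tpm1 were below every control in every 405-min library, as were 6.43% of all genes. Within both sets 6 of the 9 were below every control of their set (Actg1, Tagln, Myl9, Tpm1, Vcl and Srf), where 15.2% of all genes were, and Actb, Acta2 and Tpm2 overlapped. At 135 min 0 of 9 passed with the term, where 3.06% of all genes were higher and 4.88% lower.

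**Figure D3:**
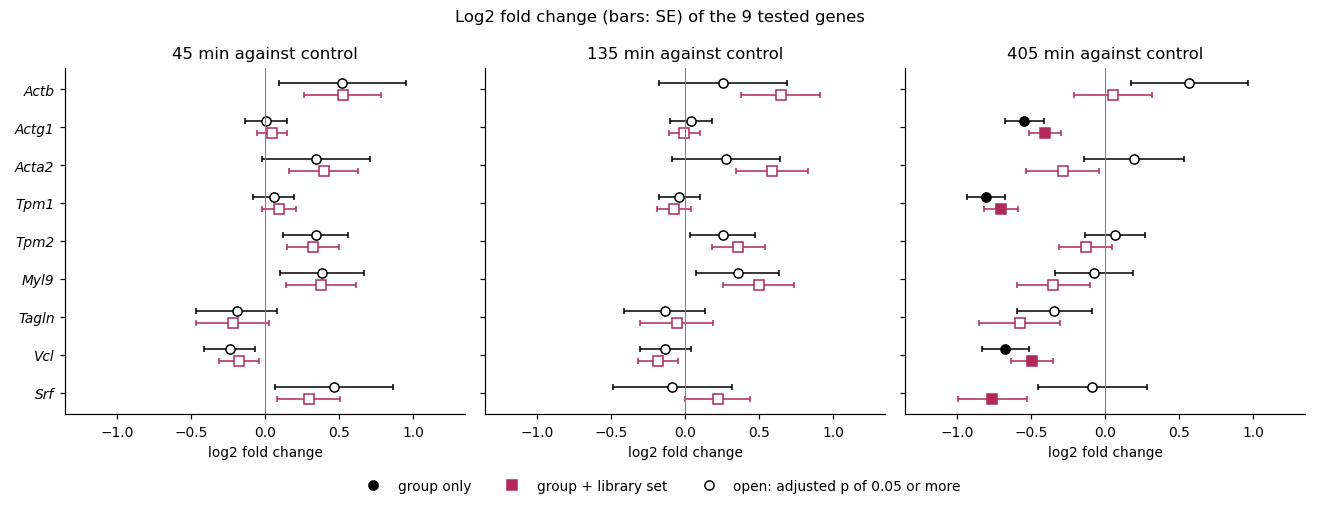
Log2 fold change (x axis) of the 9 tested genes against control at 45, 135 and 405 min, with bars for the SE. Black circles come from the model with group only, red squares from the model with the library set added, and filled symbols have an adjusted p under 0.05. At 45 and 135 min all symbols are open; at 405 min Tpm1, Vcl and Actg1 are filled in both models and Srf only with the library set.

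Between 135 and 405 min 2 of 9 genes were lower (Tpm1 and Actg1) and 0 were higher, where 2.82% of all genes were lower and 2.24% higher. With the library set as a term 1 of 9 was lower (Tpm1, -0.63 ± 0.14, adjusted p = 0.0207), where 2.01% of all genes were lower and 1.66% higher. All 9 log2 fold changes were then below 0, from -0.98 for Srf (adjusted p = 0.0619) to -0.31 for Vcl (adjusted p = 0.357). Leaving out any one 135-min library ended both calls, with adjusted p-values of 0.057 to 0.0631 for Tpm1 and 0.126 to 0.133 for Actg1. Of all genes, 27, 23 and 41 were lower without 135-min replicates 1, 2 and 3, beside 290 with every library. Leaving out replicate 1, 2 or 4 at 405 min ended the call of Actg1, with adjusted p-values of 0.0934 to 0.11. Of all genes, 102, 144 and 54 were then lower. Without replicate 3 at 405 min Vcl passed as well (-0.62, adjusted p = 0.0474), where 602 of 10298 genes tested were lower.

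Levels can be compared between genes per transcript length, as RPKM. In the 5 controls the median RPKM was 742 for Actg1, 486 for Actb, 176 for Tpm1, 145 for Acta2, 47.8 for Vcl, 44.1 for Tpm2, 32.8 for Tagln, 4.97 for Myl9, 2.27 for Srf and 0.0216 for Cnn1. In this order the control ranges of neighbours overlapped except at 3 steps, from Acta2 (56.4 to 431) to Vcl (34.4 to 55.0), from Tagln (26.4 to 49.8) to Myl9 (1.94 to 9.50) and from Srf (0.712 to 5.56) to Cnn1 (0 to 0.408). The ranges of Actb (104 to 1557) and Acta2 were wide, so that each also overlapped those of Actg1 (412 to 1078) and Tpm1 (101 to 239), and Acta2 that of Tpm2 (12.1 to 67.9). At 405 min the median RPKM of Actb was 1052 (558.5 to 1158) and that of Actg1 was 554 (472 to 662), and their ranges again overlapped. The order of these medians was the reverse of that in controls. Among the control and 405-min libraries the order within a library went with the library set. It did not in 45-min replicate 1, a library of set 1, where Actb (1055) was above Actg1 (1002). Actb was above Actg1 in the set 2 control (1557 and 742) and in the 3 set 2 libraries at 405 min, and below it in the 4 set 1 controls and in the set 1 library at 405 min (558.5 and 662). With 3 of 4 libraries at 405 min but 1 of 5 controls in set 2, time and set cannot be told apart in this reversal.

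The rest of the pathway was read from 6 lists with 48 further genes, of which 39 were tested. At 405 min 1 of the 39 was higher and 9 were lower, with a median log2 fold change of 0.13 beside -0.001 over all genes. With the library set as a term 1 was higher and 10 lower, and the median was -0.23 beside -0.01. Shares of the whole transcriptome that passed were those given above.

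**Figure D4:**
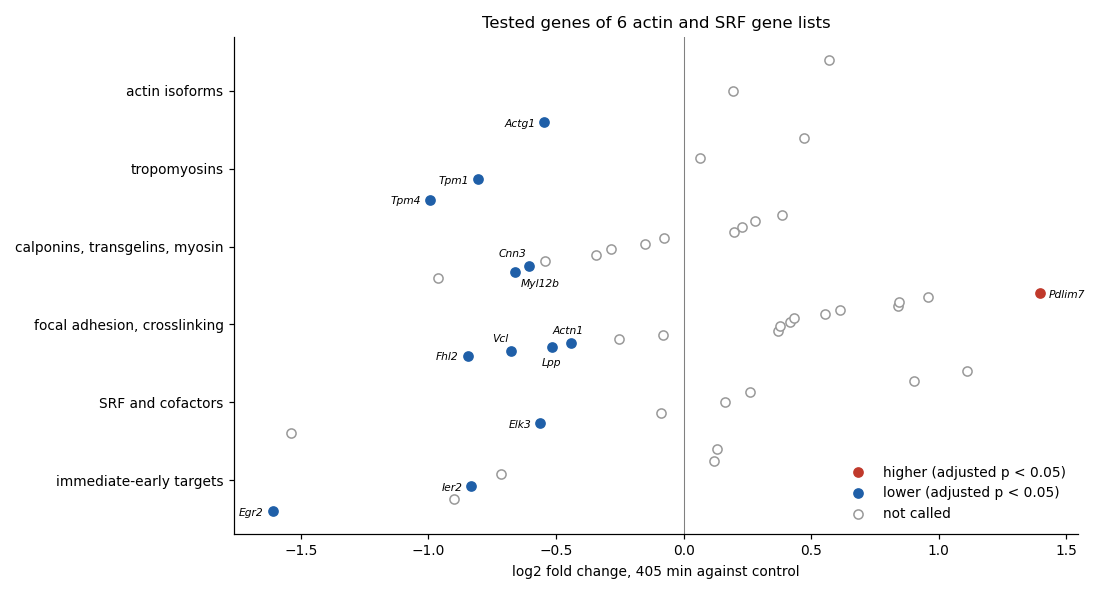
Log2 fold change at 405 min against control (x axis, model with group only) of the tested genes of 6 lists, 1 point per gene, with the 10 genes described above included. Blue points were lower and red points higher with an adjusted p under 0.05, and open points did not pass. Pdlim7 is the only red point, at 1.40, and of the tropomyosins Tpm1 and Tpm4 lie below 0.

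Among the 4 tropomyosin genes Tpm4, which codes for a cytoskeletal form, fell with Tpm1. Its controls averaged 827 ± 126 CPM (SD, n = 5), and its 405-min libraries 415 ± 65.9 CPM (SD, n = 4). The log2 fold change was -0.99 ± 0.18 (adjusted p = 0.00231), and -0.70 with the library set as a term (adjusted p = 0.000782). Tpm3 was 0.47 ± 0.17 (adjusted p = 0.0547), and 0.26 with the term (adjusted p = 0.23). Of the 12 tested genes for calponins, transgelins and myosin-based contractility, 0 were higher and 2 lower. Of all genes tested, 9.99% were higher and 13.4% lower. Cnn3, the calponin of non-muscle cells, fell by 0.60 ± 0.11 (adjusted p = 0.00221) from 384 ± 38.4 to 253 ± 11.7 CPM, and by 0.52 with the term (adjusted p = 0.00296). The myosin light chain gene Myl12b fell by 0.66 ± 0.20 (adjusted p = 0.0282), and this did not pass with the library set as a term (-0.33, adjusted p = 0.0788). Cnn2, another calponin, passed only with the term, with -0.54 (adjusted p = 0.119) without the term and -0.92 with it (adjusted p = 0.000637), and is named here after its values were seen.

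Of the 16 genes for focal adhesion and actin crosslinking, 1 was higher and 4 were lower at 405 min. Of all genes tested, 9.99% were higher and 13.4% lower. Fhl2, a LIM-domain cofactor and SRF target, was lower at both later times. Controls averaged 142 ± 20.8 CPM (SD, n = 5), the 135-min libraries 86.3 ± 4.84 CPM (SD, n = 3) and the 405-min libraries 79.1 ± 9.32 CPM (SD, n = 4). Its log2 fold changes were -0.72 ± 0.15 (adjusted p = 0.0306) and -0.85 ± 0.14 (adjusted p = 0.00116). These were -0.74 (adjusted p = 0.00561) and -0.81 (adjusted p = 0.0013) with the library set as a term. Lpp, a LIM protein of the zyxin family, fell by 0.52 ± 0.13 (adjusted p = 0.0142), and Actn1, the crosslinker alpha-actinin 1, by 0.44 ± 0.13 (adjusted p = 0.0306); Actn1 was added after its values were seen. With the term both were lower by 0.52 (adjusted p = 0.0174 for Lpp and 0.0156 for Actn1). Pdlim7, a PDZ and LIM scaffold, rose from 22.4 ± 14.2 to 59.4 ± 17.7 CPM (1.40 ± 0.36, adjusted p = 0.0167), and by 0.90 with the library set as a term (adjusted p = 0.0189). The remaining 11 genes of the list did not pass.

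Of Srf and the genes of 6 cofactors, Elk3, a ternary complex factor that can repress transcription, was the only one that passed at 405 min (-0.56 ± 0.14, adjusted p = 0.0134, and -0.66 with the library set as a term, adjusted p = 0.0064). The genes of the actin-regulated cofactors, Mkl1 and Mkl2, read 0.91 ± 0.43 (adjusted p = 0.122) and 0.16 ± 0.13 (adjusted p = 0.338), and with the term 0.29 (adjusted p = 0.366) and 0.055 (adjusted p = 0.815). Of 6 tested immediate-early targets, Egr1, a zinc finger factor induced by serum through SRF, was lower at 135 min. Controls averaged 54.1 ± 40.7 CPM (SD, n = 5), the 135-min libraries 8.35 ± 1.47 CPM (SD, n = 3) and the 405-min libraries 29.1 ± 9.45 CPM (SD, n = 4). The later libraries differed from control by log2 fold changes of -2.70 ± 0.58 (adjusted p = 0.031) and -0.90 ± 0.47 (adjusted p = 0.159). Egr1 passed at both times with the library set as a term (-2.30, adjusted p = 0.00203, and -1.40, adjusted p = 0.0127). At 405 min Egr2 fell by 1.61 ± 0.45 (adjusted p = 0.0224) and Ier2 by 0.83 ± 0.22 (adjusted p = 0.0169), and none of the 6 was higher. With the term they fell by 1.77 (adjusted p = 0.0258) and 0.95 (adjusted p = 0.00865). At 45 min no gene of the 6 lists passed with or without the term. At 135 min Fhl2 and Egr1 were the only genes of the lists that passed in the model with group only. With the library set as a term 3 of the 48 tested were higher and 3 lower. Of all genes tested, 3.06% were then higher and 4.88% lower. Of the list genes that passed only with the term, Tln1, Myh9 and Ier2 are named here after their values were seen. Tln1, which codes for the integrin activator talin 1, was 0.28 without the term (adjusted p = 0.784) and 0.56 with it (adjusted p = 0.0193), and 0.60 within set 1 (adjusted p = 0.0408). Myh9, a non-muscle myosin II heavy chain, was 0.35 (adjusted p = 0.506) and 0.46 with the term (adjusted p = 0.0367), and it did not pass within set 1 (adjusted p = 0.0583). Ier2 was -0.83 (adjusted p = 0.126) and -0.76 with the term (adjusted p = 0.0497), and it did not pass within set 1 (-0.63, adjusted p = 0.112). The calls of Fhl2 and Egr1 at 135 min in the model with group only were lost when any one 135-min library was left out. Adjusted p-values were then 0.131 to 0.198 for Fhl2 and 0.14 to 0.182 for Egr1. Of all genes, 22, 25 and 25 were lower without 135-min replicates 1, 2 and 3, beside 92 with every library. Leaving out control replicate 1 or 5 ended both calls too, and leaving out control replicate 4 that of Fhl2 (adjusted p = 0.058 to 0.0705). Without control replicates 1, 4 and 5, 49, 52 and 51 of all genes were lower.

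Of the 48 further genes 36 had a promoter in the same table, and 6 of them held a strict CArG box (Acta1, Actc1, Cnn2, Egr2, Fhl2 and Myl6). At 405 min Egr2 and Fhl2 were lower, Cnn2 was lower only with the library set as a term, and Myl6 passed in neither model (0.20, adjusted p = 0.536, and -0.25 with the term, adjusted p = 0.25). Acta1 and Actc1, the actins of striated muscle, had under 1 count in at least 1 library and were not tested.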

How the data were processed

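mRNA-seq was analysed in 15 samples of NIH3T3 cells, 1 table of 20207 RefSeq genes each. Per the study's methods, the authors aligned reads to mm9 and quantified them on DNAnexus; the aligner is not given in the sources used here. The labels name the NuGEN Encore Complete kit for all samples, while the methods describe a hand protocol beside a NuGEN kit. The authors deposited expected counts, estimates that need not be whole, written to 4 significant digits. The authors also divided them by gene length and depth to give RPKM. A standard score (the RPKM centred and scaled over the genes of a sample) and a ratio, the RPKM over the root mean square of its sample, were further deposited by the authors. Expected counts were rounded and tested. RPKM served to compare levels between genes, and the score and ratio columns were not used.

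The 10276 genes whose rounded count was 1 or more in all 15 samples entered 1 quasi-likelihood fit with a term for group in edgeR 4.0.16 (R 4.3.3), with TMM factors and Benjamini-Hochberg adjustment over all genes (threshold 0.05). The SE was the log2 fold change over the square root of F. The fit was tested on simulated data. Gene positions were copied from the deposited tables (mm9). Exonic GC came from NCBIM37, the same assembly, with GENCODE vM1 exons, for 95.9% of tested genes and all 10 genes described. Alternatives were DESeq2 1.42.0 and its size factors, other filters, only the compared groups, a replicate block, the library set as a term or by itself, an offset for GC, each library left out and, chosen after seeing the data, total counts in place of TMM.

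The 10 genes and the lists were chosen with earlier results of these data known. Beside the 10, up to 3 rising and 3 falling genes per list with the largest change among those that passed were named at 135 and 405 min. A further list and a further gene are not reported here. Group and replicate came from the sample titles. Nothing states that replicates were separate cultures, so p-values measure the spread between these samples. The 22 replicate pairs differed by 10.0 to 237.2 chi-square units per degree of freedom, and none was counted as 1 library.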

Additional observations from a re-analysis of the deposited data

Results flagged for a closer look

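Each of the 10 genes was examined in the control group (n = 5) and the 405-min group (n = 4) for a single library far from the others by Dixon's criterion, 20 checks in all, of which chance alone flags about 1 in 20. It marked 2. Cnn1 in control replicate 4 had 1.77 CPM (26 counts), and the next highest control had 0.174 CPM. Vcl in 405-min replicate 3 had 401 CPM, and the next highest of its group had 330 CPM. That replicate was the only 405-min library of set 1. Without it the log2 fold change of Vcl against control was -0.76 (adjusted p = 0.00735), beside -0.68 with it.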

How the results depend on the processing

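At 405 min against control, Tpm1 was lower in every setting that used both library sets. Within set 1 and within set 2 its log2 fold change was -0.551 and -0.75. The number of the 9 genes lower at 405 min was 3. It became 1 with only the compared groups, where Actg1 and Vcl no longer passed (adjusted p = 0.0652 and 0.0522), and 6 with a GC offset. Within either set an arm held 1 library that is assumed to vary like the others. Calls within a set therefore cannot decide whether a gene moved, and their number is left out. The 6 lower with a GC offset were Actg1, Srf, Tagln, Tpm1, Tpm2 and Vcl, where 1592 of 9853 genes tested were lower. With only the compared groups 463 of 10328 genes were lower. The number of the 9 genes higher was 0, and 0 to 1 with one library left out. The 1 was Actb without control replicate 2, where 2515 of 10287 genes tested were higher. Against 135 min the number lower was 2. It became 3 with the Wald test of DESeq2 and 3 with only the compared groups. Vcl passed as well in these settings (adjusted p = 0.0379 and 0.0183). The number was 1 without a filter on low counts, 1 with the library set as a term and 1 with total counts in place of TMM. It was 5 with a GC offset and ran from 0 to 3 with one library left out. Within set 1 only 1 library stood at 405 min, so calls cannot decide there either. With total counts the median log2 fold change of all genes was 0.114 at 405 min against control, beside -0.001 with TMM, and 0.175 against 135 min, beside 0.042, where 325 genes were higher and 193 lower, beside 230 and 290. Against 135 min 454 of 9853 genes tested were lower with a GC offset. There 1324 of 12188 were lower with only the compared groups and 684 of 10276 with the Wald test. The cause of these changes between settings was not tested.

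Deviations from the group means correlated at -0.11 on average for samples with the same replicate number (19 pairs) and at 0.028 for different numbers (64 pairs). They correlated at 0.157 for the same library set (42 pairs) and at -0.168 for different sets (41 pairs). Equal numbers could fall in different sets, as replicate 2 did in control and at 45 min. The check therefore cannot decide whether replicate numbers pair the samples. With the replicate block 2 genes were lower at 405 min against control, without Actg1 (-0.49, adjusted p = 0.0665), and 0 against 135 min, beside 2 without the block. Of all 10276 genes tested with the block, 467 were lower at 405 min against control and 10 against 135 min. With the block Srf at 135 min was 0.064, Tpm1 at 135 min 0.014, and Srf at 405 against 135 min -0.108.

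The other log2 fold changes that turned sign had passed no test in the main model. At 45 min Actg1 was -0.017 with the size factors of DESeq2 and with its Wald test, -0.011 without a filter, -0.004 with filterByExpr, -0.024 within set 1 and -0.333 with a GC offset; Tpm1 was -0.016 within set 1 and -0.024 with a GC offset. Within set 2 Acta2 was -0.625, Actb -0.228, Myl9 -0.334, Tpm2 -0.188 and Vcl 0.245. At 135 min Actg1 was -0.006 with the set as a term, -0.018 within set 1 and -0.099 with a GC offset, and Srf 0.219 with the term and 0.208 within set 1. At 405 min Acta2 was -0.288 with the term, -0.348 within set 1 and -0.599 within set 2; Tpm2 was -0.133 with the term, -0.45 within set 2 and -0.444 with a GC offset, where it passed (adjusted p = 0.042); Actb was -0.379 within set 2; with total counts Myl9 was 0.023 and Srf 0.01. Against 135 min Srf was -0.015 with size factors, -0.016 with the Wald test, -0.02 without a filter, -0.036 with filterByExpr, -0.03 with only the compared groups, -0.983 with the term, -1.188 within set 1 and -0.693 with a GC offset, where it passed (adjusted p = 0.044). Actb was -0.592 with the term and -0.496 within set 1, and Acta2 0.055 with total counts.

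With one library left out Actg1 ran from -0.055 to 0.057 at 45 min and from -0.023 to 0.108 at 135 min. At 135 min Srf ran from -0.246 to 0.205, Tagln from -0.27 to 0.013 and Tpm1 from -0.081 to 0.015. At 405 min Myl9 ran from -0.198 to 0.15, Srf from -0.278 to 0.208 and Tpm2 from -0.102 to 0.25. Against 135 min Acta2 ran from -0.258 to 0.131 and Srf from -0.176 to 0.244. A gene near 10 CPM, such as Myl9, rests on as few as 49 counts in the shallowest library, which limits what could be seen for it.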
